A study of Mus musculus with 13 samples.

Results

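The 6 genes B2m, H2-D1, H2-K1, Tap1, Tap2, and Tapbp encode MHC class I and the machinery that loads it with peptide, and their RNA was followed in common lymphoid progenitors (CLPs), the bone marrow (BM) cells from which B cells and other lymphocytes arise. The members were found by their gene names, and all 6 of 6 were present among the 24972 genes of both expression tables. CLPs were sorted from adult BM of C57BL/6 background mice aged 6 to 12 weeks as DAPI-, Lin-, Sca1Lo, cKitLo, CD127+, and CD135+ cells, and 13 libraries were made, 1 per mouse. They came from 5 WT mice, 5 Notch1+/- mice, and 3 Notch1+/dTAD mice. Notch1+/- mice keep 1 functional Notch1 allele, and in Notch1+/dTAD mice 1 allele encodes a receptor without its transactivation domain, with the other allele WT in both lines. No treatment was given to any group. The comparison between genotypes asks what loss of 1 Notch1 allele, or of the transactivation domain from 1 allele, changes in these cells. The paper describes the shortened protein as a competitor of WT Notch1 at its target sites that activates transcription only weakly. It uses Notch1+/- mice to tell such interference from the loss of 1 allele. Libraries were made from low-input RNA with a strand-specific 3′ kit, and levels are given as TPM, transcripts scaled to a sum of 1000000 in each library. Libraries carry the numbers 1 to 14 without 8, and these numbers name them here.

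MHC class I molecules display peptides from inside the cell to CD8 T cells and are also read by receptors on NK cells. A heavy chain, encoded in C57BL/6 mice by H2-K1 and H2-D1 for the classical molecules, pairs with the light chain beta-2 microglobulin, the product of B2m. The proteasome cuts proteins into peptides, the transporter formed by TAP1 and TAP2 carries them into the endoplasmic reticulum, and tapasin, the product of Tapbp, holds empty class I molecules beside the transporter until a fitting peptide is bound. Almost all nucleated cells use this pathway, and interferons raise its genes through IRF and NLRC5 factors.

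In GENCODE M21 on GRCm38, B2m lies on chromosome 2 (122147686 to 122153083, plus strand, 4 exons), apart from the others. The other 5 lie in the MHC region of chromosome 17, in the order Tapbp (33915899 to 33929292, plus strand, 8 exons), H2-K1 (33996017 to 34000347, minus strand, 8 exons), Tap1 (34187553 to 34197225, plus strand, 11 exons), Tap2 (34203527 to 34216321, plus strand, 12 exons), and H2-D1 (35262730 to 35267499, plus strand, 8 exons). Tap1 overlaps the start of the immunoproteasome gene Psmb9 on the other strand. B2m overlaps Patl2, and Tap2 overlaps Gm15821 and Gm20496, all on the other strand. Tapbp overlaps Gm19412 on the other strand and Zbtb22 on its own. Whether strand was used in counting is not given in the sources used here, so reads of these overlapping genes may not have been told apart.

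The stretches before the starts of the light chain and of both classical heavy chain genes are printed because they show what the light and heavy chain genes, the abundant members here, share at their promoters. They come from RefSeq windows of GRCm38.p6, which held 5 of the 6 members, and searches ran over the 250 bases before each start on both strands. Tap2 had no entry. The H2-D1 and Tapbp windows lie inside the GENCODE genes, which include transcripts that start further upstream. Capitals mark matches to the kappaB motif, the IRF motif, spelled AANNGAAA, and the CRE-like motif, spelled TGACG. They also mark the CCAAT box and, for B2m, the core bound by RBPJ, the DNA-binding partner of Notch, which was searched as TGGGAA. B2m is read from chr2:122147545-122147643 on the plus strand, H2-D1 from chr17:35262918-35263050 on the plus strand, and H2-K1 from chr17:34000354-34000463 on the minus strand.
B2m: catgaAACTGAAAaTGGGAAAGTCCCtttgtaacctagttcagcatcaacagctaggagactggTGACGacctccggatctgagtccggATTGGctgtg
H2-D1: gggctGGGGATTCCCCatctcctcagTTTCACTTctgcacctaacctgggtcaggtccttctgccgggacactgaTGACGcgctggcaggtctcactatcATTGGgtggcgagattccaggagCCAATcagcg
H2-K1: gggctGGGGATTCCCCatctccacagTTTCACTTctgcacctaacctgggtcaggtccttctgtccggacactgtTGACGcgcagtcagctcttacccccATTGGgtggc

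Both heavy chain genes hold kappaB, IRF, CRE-like, and CCAAT matches in the same order, and H2-D1 holds a further CCAAT box. Over the aligned part their windows were identical at 161 of 177 bases (91.0%), with 0 gaps. In B2m the IRF match comes first, and the kappaB letters overlap the RBPJ core. The Tap1 window held a CRE-like match, a CCAAT box, and an RBPJ core, and the Tapbp window held the last of these and the CCAAT box in 2 places each. The kappaB and IRF letters were not found in the Tap1 and Tapbp windows. Of 32851 promoter windows of the same length, 3.9% held the kappaB motif, 21.3% the IRF motif, 17.8% the CRE-like motif, 33.8% the CCAAT box, and 21.6% the RBPJ core, so that all but the first are common. A match is a description of letters, not a site shown to be bound.

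Facts on the libraries as a whole bear on the values below. Between 2818 and 4736 genes per library reached 1 TPM, with 3179 to 3855 in WT, 2818 to 4736 in Notch1+/-, and 3984 to 4663 in Notch1+/dTAD libraries. Only 772 genes were above 0 in all 13 libraries. The targeted gene, Notch1, was at 0 to 25.7 TPM in WT, 9.27 to 78.5 TPM in Notch1+/-, and 0.893 to 35.0 TPM in Notch1+/dTAD libraries, so its total RNA did not separate the genotypes. A 3′ tag cannot tell the altered alleles from WT unless the altered part lies at the 3′ end. All 10 CLP markers reached 1 TPM in some library, but only 7 of them did so in at least 7 libraries. Dntt, the lymphoid DNA polymerase TdT, was the highest of them in every library, at 2095 to 9616 TPM. Among genes of the sorting markers, Flt3 (CD135) was at 5.21 to 282 TPM. Il7r (CD127) was at 0 in Notch1+/- library 6 and at 1.07 TPM in WT library 11. Kit and Ly6a (Sca1) were listed at 0 in several libraries. The summed level of the 10 CLP markers, with Dntt as its largest part, was 5823 to 9720 TPM in WT, 3497 to 10785 TPM in Notch1+/-, and 6459 to 6648 TPM in Notch1+/dTAD libraries. The CLP marker Ly6d was at 1801 to 2302 TPM in Notch1+/dTAD and 194 to 1538 TPM in Notch1+/- libraries, without overlap. It did not pass there (limma adjusted p = 0.932), and 3.06% of all genes tested were without overlap. WT libraries, at 271 to 2559 TPM of Ly6d, overlapped both. Among defining markers of other cells, Cd3e, Cd3g, Cd8a, and Cd8b1 of T cells, Ncr1, Klrb1c, Gzma, and Prf1 of NK cells, Ms4a1 and Cd22 of mature B cells, Cd68, Adgre1, and Fcgr1 of macrophages, and Zbtb46 and Batf3 of dendritic cells were listed at 0 throughout. Other genes of the same lists were present in some or all libraries. Nkg7 of NK cells was at up to 1122 TPM (WT library 10) and at 262 TPM in Notch1+/dTAD library 9. Cd4 of T cells was at up to 187 TPM (WT library 10). Cd79a of B cells was at 60.9 to 419.6 TPM in libraries 1, 4, 5, 7, and 9, highest in Notch1+/- library 4. Siglech of plasmacytoid dendritic cells was above 0 in every library, at 3.78 to 489 TPM, highest in Notch1+/dTAD library 7. Summed monocyte and macrophage markers were at 0.174 to 539 TPM in WT, 2.17 to 270.0 TPM in Notch1+/-, and 209.7 to 471 TPM in Notch1+/dTAD libraries. All 7 neutrophil markers reached 1 TPM in some library, and their sums were 123 to 2460.0 TPM, 0 to 1499 TPM, and 231 to 1895 TPM in the same order. S100a9 of that list was at 0 to 871 TPM, 0 to 1001 TPM, and 138 to 528 TPM in that order, with overlap (limma adjusted p = 0.932 for Notch1+/dTAD against Notch1+/-). The part of these markers in the values of the class I genes was not tested.

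The light chain gene B2m had the highest TPM of the members and, over the 13 libraries together, the smallest spread. In WT libraries 1, 2, 3, 10, and 11 it was at 739, 1102, 621, 1245, and 1792 TPM. In Notch1+/- libraries 4, 5, 6, 12, and 13 it was at 1544, 1311, 1252, 1485, and 954 TPM, and in Notch1+/dTAD libraries 7, 9, and 14 at 1511, 889.5, and 1493 TPM. Both the lowest and the highest value were WT, and the 3 genotypes overlapped. Means were 1100 ± 463 TPM (SD, n = 5) in WT, 1309 ± 232 TPM (SD, n = 5) in Notch1+/-, and 1298 ± 354 TPM (SD, n = 3) in Notch1+/dTAD libraries. In every library B2m stood between rank 96 and rank 258 of all genes by TPM.

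The heavy chain gene H2-K1 came next. It was at 683, 781, 821, 832, and 651 TPM in WT libraries 1, 2, 3, 10, and 11. In Notch1+/- libraries 4, 5, 6, 12, and 13 it was at 1024, 1102, 245, 469, and 776 TPM, and in Notch1+/dTAD libraries 7, 9, and 14 at 903, 1106, and 625 TPM. The WT libraries lay close together, with a coefficient of variation of 10.9%, whereas the Notch1+/- libraries held both values below and values above all WT ones, with a coefficient of variation of 50.3%. Within WT libraries H2-K1 was thus steadier than B2m, whose coefficient of variation there was 42.1%. Mean levels were 753 ± 82.1 TPM (SD, n = 5), 723 ± 364 TPM (SD, n = 5), and 878 ± 241 TPM (SD, n = 3) in WT, Notch1+/-, and Notch1+/dTAD libraries, and the difference in spread was not tested.

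The other heavy chain gene, H2-D1, was lower and less even. WT libraries 1, 2, 3, 10, and 11 held 153, 181, 204, 429, and 92.7 TPM. Notch1+/- libraries 4, 5, 6, 12, and 13 held 638, 306, 364, 160.2, and 42.7 TPM, and Notch1+/dTAD libraries 7, 9, and 14 held 386, 92.3, and 353 TPM. The highest and the lowest library were both Notch1+/-, 14.9-fold apart, and each genotype held a library below 100 TPM. The ratio of H2-K1 to H2-D1 TPM ran from 0.675 in Notch1+/- library 6, the 1 library where H2-D1 was the higher, to 18.2 in Notch1+/- library 13. The sum of both heavy chains ran from 0.415 to 1.65 times B2m.

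Of the transporter subunits, Tap2 was the more abundant. In WT libraries 1, 2, 3, 10, and 11 it was at 100.1, 270.5, 221, 20.5, and 317 TPM. In Notch1+/- libraries 4, 5, 6, 12, and 13 it was at 155, 428, 0, 358, and 241 TPM, and in Notch1+/dTAD libraries 7, 9, and 14 at 77.1, 439, and 236 TPM. Every genotype held both a low library and a library above 300 TPM, and Notch1+/- library 6 was listed at 0. The values of Tap1, the partner subunit, were 24.6, 102.6, 2.27, 72.0, and 113 TPM in WT libraries 1, 2, 3, 10, and 11. They were 75.3, 104.5, 0, 67.7, and 0 TPM in Notch1+/- libraries 4, 5, 6, 12, and 13, and 1.83, 12.6, and 25.8 TPM in Notch1+/dTAD libraries 7, 9, and 14. The 3 Notch1+/dTAD libraries were at the low end, but WT library 3 and Notch1+/- libraries 6 and 13 were as low, and the groups overlapped.

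The tapasin gene Tapbp had the lowest mean TPM over the 13 libraries, although in Notch1+/dTAD libraries the mean was lower for Tap1 (13.4 TPM) than for Tapbp (38.9 TPM). It was at 93.1, 1.03, 0, 9.27, and 0 TPM in WT libraries 1, 2, 3, 10, and 11. In Notch1+/- libraries 4, 5, 6, 12, and 13 it was at 11.5, 127, 87.2, 9.58, and 14.4 TPM, and in Notch1+/dTAD libraries 7, 9, and 14 at 0.743, 19.7, and 96.2 TPM. WT library 1 stood far above the other WT libraries, and with it the groups overlapped. The other WT libraries were below every Notch1+/- library, narrowly so at 9.27 TPM in WT library 10 beside 9.58 TPM in Notch1+/- library 12. Zeros were confined to Tap1, Tap2, and Tapbp among the 6 genes, and fell in 4 libraries (WT 3 and 11, Notch1+/- 6 and 13). These include Notch1+/- library 6, with the fewest genes at 1 TPM, and Notch1+/- library 13, with the most.

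**Figure D1:**
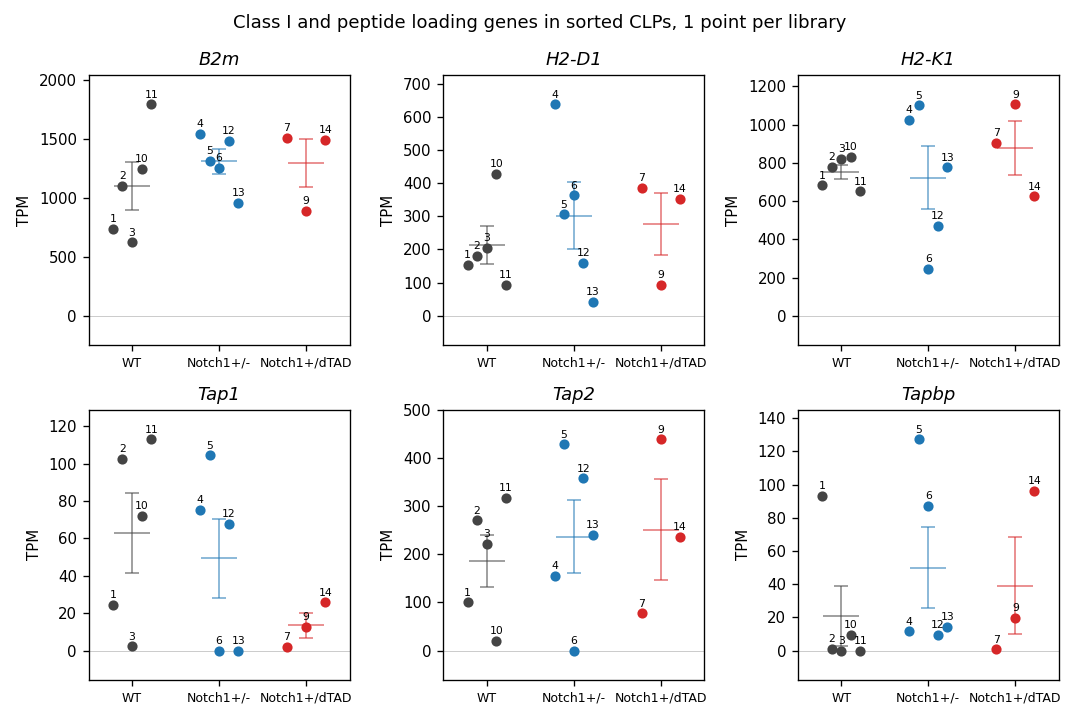
TPM (vertical axes, linear and separate for each gene) of the 6 genes in each library, with 1 numbered point per library and a horizontal line and bar for the mean ± SEM of each genotype. The genotypes overlap in every panel, H2-K1 is tight in WT from 651 to 832 TPM, and WT library 1 stands alone among WT libraries for Tapbp at 93.1 TPM.

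By mean log2(TPM + 1), a level divided by length, the order was B2m, H2-K1, H2-D1, Tap2, Tap1, Tapbp. B2m was above H2-K1 in 11 of 13 libraries, all but WT library 3 and Notch1+/dTAD library 9, with a difference of 0.70 ± 0.79 (SD, n = 13) on that scale. H2-K1 was above H2-D1 in 12 of 13 libraries, by 1.79 ± 1.25 (SD, n = 13). H2-D1 and Tap2 did not separate, with H2-D1 higher in 6 libraries and lower in 7. Tap2 was above Tap1 in 11 of 13 libraries, lower in WT library 10, and equal at 0 in Notch1+/- library 6. Tap1 and Tapbp did not separate either, with Tap1 higher in 7 and lower in 6. The libraries read 3′ ends, so dividing by length moves long transcripts down against short ones. With TPM multiplied by the annotated transcript length, 860 bases for B2m and 1619 for H2-K1, H2-K1 was the higher of the pair in 9 of 13 libraries, so the order of these genes depends on the length term.

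The spread between libraries was smallest for the most abundant members. The SD of log2(TPM + 1) over the 13 libraries was 0.45 for B2m, 0.58 for H2-K1, 1.09 for H2-D1, 2.41 for Tap2, 2.59 for Tap1, and 2.56 for Tapbp. Among 5409 genes with a mean of at least 10 TPM, the median SD was 2.65, and B2m ranked 57 and H2-K1 117 from the least variable. Beside genes within 0.5 of their own mean log2 level, B2m and H2-K1 were also on the steady side. Only 4 of 51 such genes varied less than B2m (median SD 0.71), and 12 of 60 less than H2-K1 (median SD 0.79). For H2-D1 it was 51 of 148 genes (median SD 1.67), and for Tap2 126 of 209 (median SD 2.12). The SD of Tap2 was thus larger than that of most genes of its level, but it includes the 0 of Notch1+/- library 6. By genotype the SD of Tap2 was 3.67 in Notch1+/- libraries, beside 1.60 in WT and 1.26 in Notch1+/dTAD libraries. The rank without library 6 was not computed. For the others, 158 of 577 genes of like level varied less than Tap1 and 194 of 776 less than Tapbp.

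**Figure D2:**
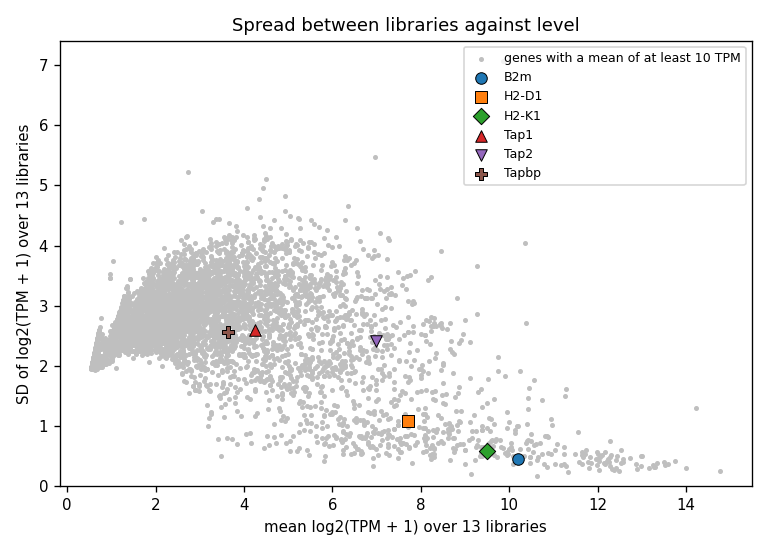
SD of log2(TPM + 1) over the 13 libraries (vertical axis) against the mean of log2(TPM + 1) (horizontal axis), with 1 grey point for each gene with a mean of at least 10 TPM and a marked point for each class I gene. B2m and H2-K1 lie at the low edge at 0.45 and 0.58, while Tap1, Tap2, and Tapbp lie at 2.41 to 2.59.

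The genotypes were compared with limma on log2(TPM + 1), with p-values adjusted by the Benjamini-Hochberg method over all genes tested, and each gene also by a 2-sided exact permutation test over libraries. A fold change on this scale understates the change of genes with low values. Bulk RNA cannot tell fewer cells that express a gene from less RNA per cell. The 5 WT libraries serve both comparisons with WT, so their results are not independent of each other.

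In Notch1+/dTAD against WT CLPs, 0 of the 6 members passed the test, beside 0 of 4737 genes tested (0%), or 15 genes and 0 members by eBayes without trend. The paper reports differentially expressed genes between these genotypes by DESeq2, a method for read counts. It also measured Deptor and the IL-21 receptor gene by qRT-PCR as lower in the mutant. The 0% by limma on TPM thus does not show that the genotypes are alike. B2m was 0.30 higher on the log2 scale (SE 0.47, 95% interval −0.72 to 1.32), H2-K1 0.19 higher (SE 0.47, −0.82 to 1.20), and H2-D1 0.32 higher (SE 0.88, −1.58 to 2.21). Intervals for the transporter and tapasin genes were wider. The log2 difference was −1.88 for Tap1 (SE 1.73, −5.61 to 1.84), 0.60 for Tap2 (SE 1.10, −1.78 to 2.97), and 1.74 for Tapbp (SE 2.13, −2.84 to 6.32). The intervals of B2m and H2-K1 thus leave room for a change of about 1 on the log2 scale in CLPs with this allele, and that of Tapbp for one of over 6. Exact permutation p ran from 0.268 for Tap1 to 0.643 for H2-D1, where 56 splits of 8 libraries allow no p under 0.0179.

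In that comparison 5 of 6 members had a log2 difference above 0, and so did 61.8% of all genes tested. The median of all genes was 0.47 and that of the 6 members 0.31. Relative to the median of all genes, B2m was at −0.17, H2-D1 at −0.15, H2-K1 at −0.28, Tap1 at −2.35, Tap2 at 0.13, and Tapbp at 1.27. The median itself moved with the settings, to 0.18 with a pseudocount of 10, 0.27 over all genes above 0, and −0.02 with quantile normalization, and with the first and last of these B2m, H2-D1, and H2-K1 were above it. The log2 differences of these 3 genes were above 0 under each scaling, at 0.25, 0.29, and 0.15 with quantile normalization. At an unadjusted limma p under 0.05, 0 of 6 members and 237 of 4737 genes (5%) passed, and without overlap between groups there were 0 of 6 members and 3.12% of genes.

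In Notch1+/- against WT CLPs, 0 of 6 members passed, beside 0 of 3178 genes tested (0%), or 2 genes and 0 members by eBayes without trend. Tapbp differed most, at 2.70 on the log2 scale (SE 1.66, 95% interval −0.84 to 6.25, limma adjusted p = 0.969), and its exact permutation p of 0.0873 was the smallest of the 18 tests run over the 6 genes and 3 comparisons. Without WT library 1, singled out as the highest WT value of Tapbp, all 4 other WT values lay below all Notch1+/- values, and with it they did not. The nearest were 9.27 TPM in WT library 10 and 9.58 TPM in Notch1+/- library 12. How many of all genes separate after such a choice was not computed. The Tapbp difference without WT library 1 was 3.80 (SE 1.67), short of the threshold (limma adjusted p = 0.838). B2m was at 0.33 (SE 0.41, −0.54 to 1.21) and H2-D1 at 0.22 (SE 0.85, −1.58 to 2.03). H2-K1 was at −0.25 (SE 0.52, −1.35 to 0.85), Tap1 at −1.41 (SE 1.79, −5.22 to 2.41), and Tap2 at −0.57 (SE 1.52, −3.82 to 2.68). In all, 3 of 6 members were above 0, beside 51.4% of genes tested, and their median was −0.01 beside 0.06 for all genes. At an unadjusted p under 0.05 there were 0 of 6 members and 170 genes (5.35%), and 0 members and 0.787% of genes were without overlap.

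Library 6 decided the sign for Tap2 and H2-K1 in this comparison. Without it Tap2 was at 1.05 and H2-K1 at 0.09 on the log2 scale. H2-D1 was at −0.16 without Notch1+/- library 4 and at −0.03 without WT library 11. The sign for these 3 genes thus rested on single mice.

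Between the mutants, tested in a model of all 13 libraries, 0 of 6 members passed, beside 0 of 6281 genes tested (0%), or 3 genes and 0 members by eBayes without trend. Notch1+/dTAD minus Notch1+/- differences on the log2 scale were −0.03 for B2m (SE 0.50, 95% interval −1.07 to 1.00), 0.43 for H2-K1 (SE 0.61, −0.84 to 1.71), and 0.10 for H2-D1 (SE 1.02, −2.02 to 2.21). They were −0.48 for Tap1 (SE 1.98, −4.58 to 3.63), 1.17 for Tap2 (SE 1.61, −2.18 to 4.51), and −0.97 for Tapbp (SE 1.95, −5.02 to 3.09). In all, 3 of 6 members were above 0, beside 59% of genes, and the median was 0.03 beside 0.35 for all genes. At an unadjusted p under 0.05 there were 0 members and 335 genes (5.33%), and 0 members and 3.06% of genes were without overlap. Over the 3 comparisons the 18 exact permutation p-values lay between 0.0873 and 0.893, and 0 were under 0.05 before adjustment.

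**Figure D3:**
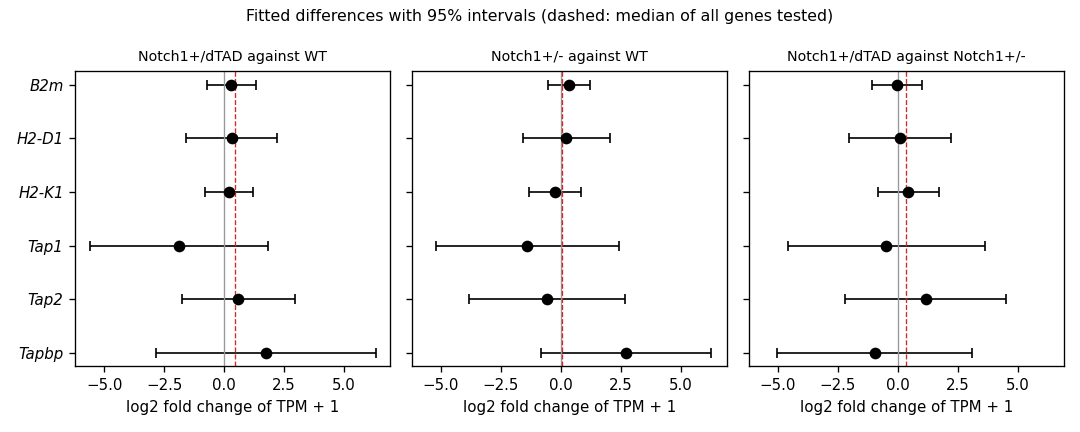
Differences in log2(TPM + 1) between genotypes for the 6 genes (horizontal axis), with a point for the limma estimate and a bar for its 95% interval, for each of the 3 comparisons. Every interval crosses 0, and bars are narrow for B2m and H2-K1 and wide for Tap1, Tap2, and Tapbp.

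Libraries 1 to 9 and 10 to 14 were also compared apart, since each range holds all 3 genotypes. Their titles share 1 code and name no batch. The sign of the mean difference was not the same in both ranges for 9 of the 18 differences. In Notch1+/- minus WT, B2m was at 0.77 in libraries 1 to 9 and −0.33 in 10 to 14, and H2-D1 at 1.21 and −1.26. Tapbp kept its sign there, at 3.18 and 1.99, as did Tap1 in Notch1+/dTAD minus WT, at −1.73 and −1.77, although the later range holds 1 Notch1+/dTAD library. H2-K1 was at 0.40 and −0.23 in that comparison.

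The 2 genes closest to each member in pattern were taken by Spearman's rho of log2(TPM + 1) over the 13 libraries, among 1570 genes at 1 TPM or more in at least 10 of them. For B2m they were Cdc42se2 (rho 0.802) and Gm5643 (0.709), for H2-K1 Hes1 (0.858) and Kctd12 (0.824), and for H2-D1 Isoc2a (0.841) and Brd7 (0.801). For Tap1 they were Tbca (0.850) and Rps12 (0.787), for Tap2 Rpl4 (0.813) and Rpl37 (0.802), and for Tapbp Kat6a (0.829) and Atp6v1f (0.801). No member was among the 2 closest genes of another. Between members rho was 0.437 for B2m and Tap1, 0.421 for Tap1 and Tap2, and 0.412 for B2m and H2-D1. It was 0.159 for H2-D1 and H2-K1, −0.121 for B2m and H2-K1, and −0.632 for H2-D1 and Tap2. These are descriptions over libraries that share their depth and scaling, and the closest of 1570 genes are high by selection.

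The rest of the class I pathway was described from lists of genes. Of 17 other class I heavy chain genes, 7 were listed at 0 in all libraries (H2-Q1, H2-Q2, H2-Q6, H2-Q10, H2-T23, H2-Bl, and Fcgrt), and 1, H2-Q7, reached 1 TPM in at least 7 libraries. H2-Q7 was at 0 to 479 TPM in WT, 0 to 54.5 TPM in Notch1+/-, and 0.297 to 133 TPM in Notch1+/dTAD libraries. H2-M3, which presents formylated peptides, was listed at 0 in 10 of 13 libraries and at 558 TPM in Notch1+/- library 4. Class I genes resemble each other, and reads of near-identical copies may be split or dropped in counting. For each member, the last 500 bases of its longest principal coding transcript were compared with transcripts of other genes. The ends of its other annotated transcripts were not. H2-K1 shared 2 of 451 stretches of 50 bases with another gene, which was H2-D1. H2-D1 shared 43 of 451 (9.53%) with 80 other genes, led by AC132307.5, Adsl, Kcnk4, and Nmrk1 rather than by class I genes. The other 4 members shared 0.

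Of 15 other loading and trimming genes, 12 were tested in Notch1+/dTAD against WT, 0 passed, and the median log2 difference was 1.28 beside 0.47 for all genes. It was 0.07 over 10 genes in Notch1+/- against WT and 0.37 over 15 genes in Notch1+/dTAD against Notch1+/-, with 0 passed in each. Calr, the chaperone calreticulin, was at 1.23 to 1230 TPM in WT, with 1.23 TPM in library 11 alone and 738 TPM or more in the other WT libraries, at 169 to 1004 TPM in Notch1+/-, and at 633 to 1087 TPM in Notch1+/dTAD libraries. Sec61g, a subunit of the translocon, ran from 222 to 1993 TPM over all libraries. Sec61a1, the channel subunit, was at 258, 131, and 142 TPM in Notch1+/dTAD libraries 7, 9, and 14, and at 0, 81.0, 1.04, 0, and 0.294 TPM in WT libraries 1, 2, 3, 10, and 11. In Notch1+/- libraries 4, 5, 6, 12, and 13 it was at 374, 0, 0, 188, and 79.1 TPM, which overlapped both other groups. Notch1+/dTAD and WT libraries did not overlap, and the log2 difference was 5.86 (SE 1.93), but it did not pass (limma adjusted p = 0.689).

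The 6 immunoproteasome and activator genes were all tested in each comparison and 0 passed, with medians of −1.07, −0.16, and −0.46 for Notch1+/dTAD against WT, Notch1+/- against WT, and Notch1+/dTAD against Notch1+/-. Psmb8, a catalytic subunit, was found in all libraries at 65.2 to 839 TPM, and Psme1, an activator subunit, at 0 to 1308 TPM. The constitutive catalytic subunits were higher in Notch1+/dTAD than in WT libraries at unadjusted p for Psmb6 (5.59, SE 2.11, limma adjusted p = 0.864) and Psmb5 (4.36, SE 1.98, limma adjusted p = 0.952), and 0 of 3 passed after adjustment. Psmb6 was at 399, 125, and 132 TPM in Notch1+/dTAD libraries 7, 9, and 14, beside 320 TPM in WT library 2 and at most 1.87 TPM in the other WT libraries. Psmb5 was at 581, 515, and 73.3 TPM in the same Notch1+/dTAD libraries and at up to 291 TPM in WT (library 3), with overlap. Psmb7 was lower in Notch1+/- than in WT libraries by limma (−4.49, SE 1.95, adjusted p = 0.892) and higher in Notch1+/dTAD than in Notch1+/- libraries (6.27, SE 1.99, adjusted p = 0.932), with neither past the threshold. It was at 0.780, 0, 0, 0, and 199.6 TPM in Notch1+/- libraries 4, 5, 6, 12, and 13. WT libraries held 1.87 to 484 TPM and Notch1+/dTAD libraries 105 to 403 TPM, so both overlapped Notch1+/-.

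Of 19 genes that regulate class I, 13, 8, and 16 were tested in Notch1+/dTAD against WT, Notch1+/- against WT, and Notch1+/dTAD against Notch1+/-, and 0 passed in each. Irf8 was at 300.5 to 1389 TPM and Irf1 at 2.33 to 1199 TPM over the 13 libraries, with the lowest Irf1 value in WT library 1, beside at least 222 TPM in every other library. Of 21 interferon response genes, 6 were listed at 0 throughout (Ifit2, Mx1, Usp18, Rsad2, Gbp2, and Irgm1), and 8, 6, and 11 were tested in the same 3 comparisons with 0 past the threshold. Bst2 was found in all libraries at 9.51 to 1411 TPM and Ifitm3 at 0 to 1144 TPM. Irf7, which drives interferon genes, was listed at 0 in all WT and Notch1+/dTAD libraries and at 8.45, 0, 107, 0, and 46.4 TPM in Notch1+/- libraries 4, 5, 6, 12, and 13 (Notch1+/dTAD minus Notch1+/- limma adjusted p = 0.932).

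MHC class II genes, which serve peptide display to CD4 T cells, were set beside class I. Of 11 in the list, 8 were tested in Notch1+/dTAD against WT and 0 passed. Cd74, the invariant chain, was at 424, 452, and 462 TPM in Notch1+/dTAD libraries 7, 9, and 14. In WT libraries 1, 2, 3, 10, and 11 it was at 0.730, 393, 0.895, 303, and 0 TPM, and in Notch1+/- libraries 4, 5, 6, 12, and 13 at 16.1, 59.0, 262, 352, and 19.5 TPM. Notch1+/dTAD libraries were thus above every other library. The log2 difference was 5.09 over WT (SE 2.08, limma adjusted p = 0.923) and 2.63 over Notch1+/- libraries (SE 1.91, limma adjusted p = 0.997). Of all genes tested, 3.12% were without overlap against WT and 3.06% against Notch1+/- libraries. For the 6 class I members no comparison was free of overlap, which at those shares sets no contrast with class II. Summed dendritic cell markers were at 17.7 to 201 TPM in WT, 44.2 to 286 TPM in Notch1+/-, and 56.0 to 589 TPM in Notch1+/dTAD libraries. Of that list, Clec9a was listed at 0 in every WT and Notch1+/- library and was at 39.3, 11.1, and 41.2 TPM in Notch1+/dTAD libraries 7, 9, and 14 (limma adjusted p = 0.418 against WT and 0.192 against Notch1+/-). Of the monocyte list, Ms4a6c had a log2 difference of 4.74 from WT (SE 2.20, limma adjusted p = 0.952), with overlap between groups, and Lyz2 one of 3.48 from Notch1+/- libraries (SE 1.38, limma adjusted p = 0.932). None of these markers passed the threshold, and their part in the Cd74 values was not tested. H2-DMa, a class II peptide loading gene, was at 79.9 to 1088 TPM over all libraries, and Ciita, the class II transactivator, and H2-DMb2 were listed at 0 throughout.

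**Figure D4:**
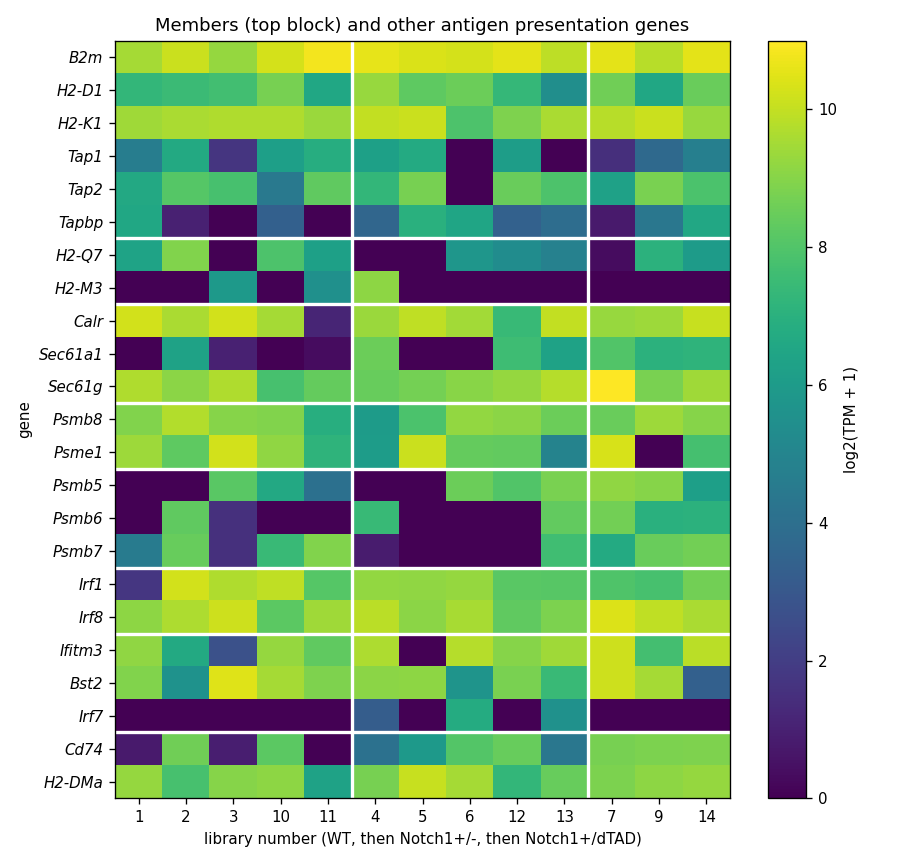
Level of the 6 members and of the other named pathway genes in each of the 13 libraries as log2(TPM + 1), with libraries grouped by genotype along the horizontal axis and genes along the vertical axis. B2m and H2-K1 are high in every library, Tap1 and Tapbp alternate between libraries, and Cd74 is at 424 TPM or more in all 3 Notch1+/dTAD libraries.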

How the data were processed

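RNA from sorted CLPs was measured as 3′ libraries. Per the labels and methods, reads went through FASTQ Toolkit for trimming and STAR for alignment to mm10, and the authors deposited TPM in 2 tables, 1 for each mutant beside the same 5 WT libraries, whose columns were identical in both. The tool, annotation, and filter behind the TPM are not given in the sources used here. Counts were not used, so depth is unknown, a TPM of 0 has no known limit, and precision rests on the spread between libraries, 1 per mouse. All columns were used.

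Values were compared as log2(TPM + 1) in R 4.3.3 with limma 3.58.1 (lmFit, eBayes with trend, 2-sided) over genes that reached 1 TPM in 3 or more libraries where Notch1+/dTAD was compared and in 5 or more otherwise. The mutants were compared in 1 model of 13 libraries. Benjamini-Hochberg adjusted p under 0.05 was the threshold, and single genes were tested by exact permutation in scipy 1.17.1. The fit was tested on simulated data. Members and lists were chosen with earlier results of these data known. The genes named are the 6 members, in each pathway list the 2 with the highest mean TPM and any with an unadjusted p under 0.05, and the 2 genes most like each member. Genes listed at 0 throughout, overlapping genes, Notch1, and cell type markers are named beside them. Coordinates are from GENCODE M21 and promoters from RefSeq. The alternatives were pseudocounts of 0.1 and 10, other filters, other scalings, other eBayes settings, array weights, a term for library numbers, and leaving out each library.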

Additional observations from a re-analysis of the deposited data

Results flagged for a closer look

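Tapbp was at 93.1 TPM in WT library 1, beside 9.27 TPM in the next highest WT library. The gap was 0.901 of the whole WT range, past the 95% critical value of Dixon's test for 5 values. It was 1 of 12 groups checked (6 genes in WT and in Notch1+/- libraries). The test was run on TPM, and its chance rate of about 1 in 20 holds for normally distributed values. The WT values of Tapbp are skewed, with 2 of them at 0, so that rate does not apply to them and the flag is a description. Without WT library 1 the Notch1+/- minus WT difference of Tapbp is among the leave-one-out values given with the other alternatives.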

How the results depend on the processing

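Values of 0 and the wide spread of Tap1, Tap2, and Tapbp limit these comparisons. Over the 6 members and 3 comparisons, 332 of 354 alternative values kept their direction and stayed short of the threshold, 22 changed sign, and 0 passed. Of the 22, 19 came from leaving out 1 library. Adjusted p of members was 0.709 or more under every alternative. Genes past the threshold numbered 0 under the main settings, and 15, 2, and 3 by eBayes without trend for Notch1+/dTAD against WT, Notch1+/- against WT, and Notch1+/dTAD against Notch1+/-. With array weights, H2-D1 was at −0.17 and Tap2 at 0.15 in Notch1+/- against WT, and with a pseudocount of 0.1 Tap1 was at 0.63 in Notch1+/dTAD against Notch1+/-. The cause was not tested.

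Leaving out 1 library gave −0.044 to 0.98 for H2-D1 (below 0 without library 7) and −0.061 to 1.28 for Tap2 (without 10) in Notch1+/dTAD against WT. In Notch1+/- against WT it gave −0.16 to 0.80 for H2-D1 (without 4 or 11), −0.45 to 0.095 for H2-K1 (without 6), −1.23 to 1.05 for Tap2 (without 6), and 2.16 to 3.80 for Tapbp, with no change of sign. In Notch1+/dTAD against Notch1+/- it gave −0.16 to 0.22 for B2m (without 4, 9, or 12), −0.49 to 0.76 for H2-D1 (without 7, 12, 13, or 14), −1.43 to 0.44 for Tap1 (without 4, 5, 7, or 12), −0.46 to 1.85 for Tap2 (without 6), and −2.30 to 0.60 for Tapbp (without 7). The libraries named are those whose removal changed the sign. No paired analysis was made, because the labels used here give no pairing of libraries between genotypes.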
